A study of Mus musculus with 2 samples.

Results

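The genes named Nduf, which encode the nuclear subunits of mitochondrial complex I, its Ndufaf assembly factors and a few relatives, were compared between control and mesenchymal progenitor-depleted skeletal muscle. They were chosen by symbol alone: in the annotation of the array, 46 of 23473 probes carried a symbol starting with Nduf, and these stood for 44 of the 18498 genes compared. Of the 44 genes, 34 encode complex I subunits, 7 are Ndufaf assembly factors and 3 are other Nduf genes, and all 44 lay above background on both arrays. The samples were gastrocnemius, a calf muscle, of female mice aged 10 weeks. The control was 1 sample of genotype Wild type:R26-DTA, which carries the diphtheria toxin A allele at Rosa26 without a Cre. The depleted group was 1 sample of genotype Pdgfra-CreER:R26-DTA, in which the Pdgfra promoter drives a Cre that tamoxifen activates, so that cells with an active Pdgfra promoter make the toxin. Per the labels' protocols, mice of both groups were given tamoxifen on 5 consecutive days from 9 weeks of age, and muscle was taken 2 days after the last dose. Since only 1 of the 2 genotypes carries CreER, its presence and the depletion cannot be told apart.

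Complex I, or NADH:ubiquinone oxidoreductase, takes electrons from NADH at the tip of a matrix arm, passes them along iron-sulfur clusters to ubiquinone, and pumps protons through a membrane arm. The core subunits carry the catalysis, partly encoded in the nucleus and partly in mitochondrial DNA, and the accessory subunits surround and stabilise them. Assembly factors build the complex from modules and leave it before it is complete. Muscle fibres are rich in mitochondria, and the oxidative fibre types more so. In whole muscle, fewer cells of a type and less RNA per cell cannot be told apart.

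Each group held 1 array, so no value below has a replicate, a spread between animals or a test, and precision is limited by having a single array of each kind. Spot intensities were normexp-corrected with an offset of 50 and quantile-normalised, and log2 ratios are depleted over control on that scale unless stated. The authors' processed intensities, a linear scale with a median of 25 on both arrays, are given beside them as deposited values for control and then depleted muscle. A gene was counted as lower or higher past 1.5-fold, which 1.52% and 1.96% of all genes reached. Counts over lists are of the genes compared. Of 11 listed mesenchymal progenitor markers 10 were compared, and these 10 were lower in depleted muscle, 8 of them past 1.5-fold, with Lum at -1.84, Col1a2 at -1.42 and Dpt at -1.23. Control muscle had a blank-spot limit of 37.4 and depleted muscle one of 38.5, and 30 of the 34 subunit genes lay above the 75th percentile of signal.

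Complex I subunit genes were lower in depleted muscle by small and similar amounts after quantile normalisation, but not clearly so with scaling to the median, which put their median at -0.06 with 21 of 34 lower. On the quantile scale 31 of 34 subunits were lower and 3 higher, with a median log2 ratio of -0.36 and a range from -0.72 to 0.22, whereas the median of all genes was -0.0036 and 52.4% of all genes were lower. Of the subunits 3 were at least 1.5-fold lower (Ndufs1, Ndufs8 and Ndufb7), none was at least 1.5-fold higher, and 0 reached 2-fold, which 0.427% of all genes did downward and 0.492% upward. With scaling to the median none of these 3 passed 1.5-fold (Ndufs1 -0.37, Ndufs8 -0.40, Ndufb7 -0.24). In the authors' processed values 4 subunits were lower and 2 higher past 1.5-fold, and Ndufb7, at -0.56, was not among them. Because array ratios depend on signal, the subunits were also set beside the 194 other genes whose signal lay between the lower and upper quartile of the subunits' own, a comparison set chosen after the values were seen. These genes of like signal had a median of 0.03; 42.8% of them were lower, 6.19% by at least 1.5-fold, and 10.8% were higher by that much. Among the genes above the 75th percentile, 51.0% were lower, and 4.95% and 5.88% passed 1.5-fold downward and upward. The count of 3 subunits past 1.5-fold was not far from the share among genes of like signal, while 31 of the 34 subunits lay below the median of those genes. Subunits brighter or dimmer than the quartiles lie outside the signal range of that set. The quartiles of the subunits were -0.46 and -0.24, those of the genes of like signal -0.25 and 0.27.

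**Figure D1:**
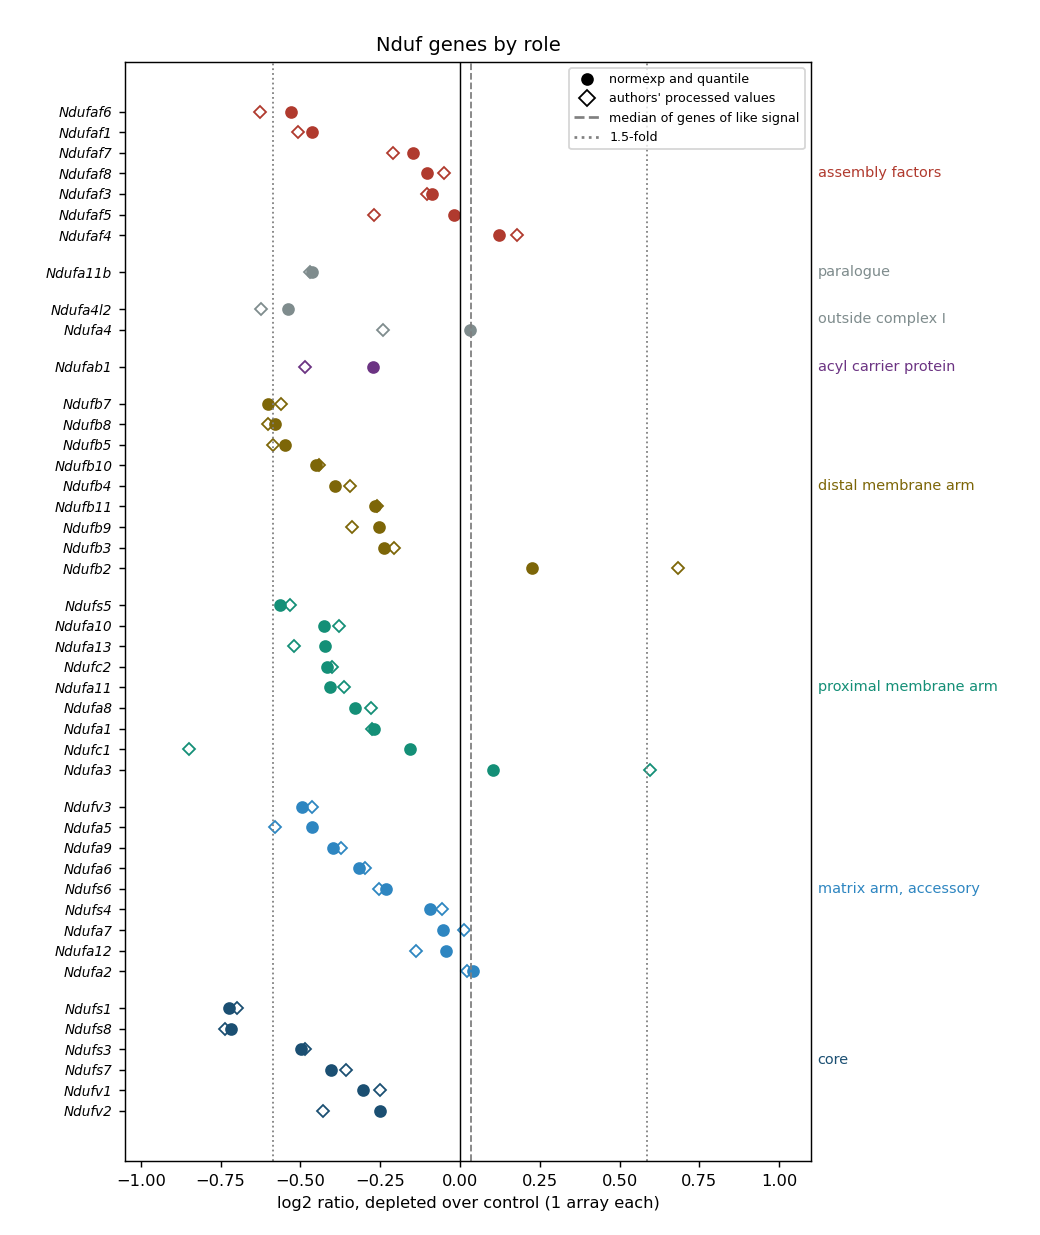
Log2 ratio of depleted over control muscle for each of the 44 Nduf genes, grouped by role, with 1 array per group. Filled circles are normexp and quantile values, open diamonds the authors' processed values, the dashed line the median of genes of like signal (0.03) and dotted lines 1.5-fold; 31 of 34 subunits lie left of 0 by the circles (21 of 34 with scaling to the median, not drawn), and circles and diamonds part most at the dim probes of Ndufc1, Ndufa3 and Ndufb2.

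All 6 measured nuclear core subunits were lower, with a median of -0.45 (5 of 6 and -0.14 with scaling to the median). Ndufs1, which holds iron-sulfur clusters of the NADH-oxidising module, had deposited values of 1594.7 and 982.4 and a log2 ratio of -0.72, or 1.65-fold lower. Ndufs8, which holds the clusters that lead toward ubiquinone, went from 1123.0 to 674.2 (-0.72, or 1.64-fold lower). These were the lowest ratios among the 44 genes. Ndufs3, a scaffold of the ubiquinone-binding module, was at 5619.2 and 4013.3 (-0.50), and Ndufs7, which carries the last cluster before ubiquinone, at 4537.1 and 3542.2 (-0.40). The NADH-binding flavoprotein subunit Ndufv1 was at 2994.4 and 2514.2 (-0.31), and its iron-sulfur partner Ndufv2 at 11842.9 and 8800.7 (-0.25). The ratio of Ndufv2 was larger in the deposited values, at -0.43. On the quantile scale both flavoprotein subunits had the ratios nearest 0 among the core genes, while in the deposited values Ndufs7, at -0.36, was nearer 0 than Ndufv2. Whether they differ from Ndufs1 and Ndufs8 beyond animal spread could not be tested with 1 array each. Ndufb1, Ndufb6, Ndufaf2 and the mitochondrially encoded subunits were not analysed here.

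Accessory subunits of the matrix arm were lower in 8 of 9 genes, with a median of -0.23 and 0 past 1.5-fold, while scaling to the median gave 3 of 9 lower and a median of 0.06. Ndufv3 of the NADH module was lowest, at 3639.4 in control and 2640.9 in depleted muscle (-0.49). Ndufa5, of the ubiquinone module, followed at 10487.8 and 7015.6 (-0.46), and Ndufa9, which clamps the matrix arm to the membrane arm, at 2893.5 and 2232.3 (-0.40). Near 0 lay Ndufs4, a subunit needed for a stable NADH module and known from Leigh syndrome, at 3967.5 and 3819.4 (-0.09), and Ndufa7 at 4014.6 and 4049.4 (-0.05). Ndufa12, which takes the place of an assembly factor late in the building of the complex, was at 9596.8 and 8718.4 (-0.04). Ndufa2, a small subunit with a thioredoxin-like fold, was the only gene of this group that was higher on the quantile scale, at 6758.2 and 6868.3 (0.04). Ndufa7 was slightly higher as well in the deposited values, at 0.01. Ndufa6 (-0.32) and Ndufs6 (-0.23) lay between. The group therefore spanned nearly equal values and ratios close to those of the core subunits.

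Accessory subunits of the proximal membrane arm were lower in 8 of 9 genes, with a median of -0.41 and 0 past 1.5-fold (6 of 9 and -0.07 with scaling to the median). Ndufs5, a disulfide-bonded subunit on the intermembrane side, was at 4401.8 and 3044.5 (-0.56). Ndufa10, which has the fold of a nucleoside kinase, was at 4621.0 and 3555.0 (-0.42), and Ndufa13, also known as GRIM-19, at 10082.5 and 7030.8 (-0.42). Ndufc2 (-0.42) and Ndufa11 (-0.41) had almost the same ratio. Ndufa8, at 5369.2 and 4424.9 (-0.33), and Ndufa1, at 5626.3 and 4651.5 (-0.27), were less low. The 2 remaining genes had dim probes: Ndufc1 had deposited values of 17.1 and 9.5 (-0.16, and -0.85 in deposited values), and Ndufa3 of 9.2 and 13.9 (0.10, and 0.60 in deposited values). Their spots stood at 49.7 and 47.1 for Ndufc1 and at 43.5 and 51.8 for Ndufa3, close to the blank-spot limits, where the offset draws ratios toward 0.

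Accessory subunits of the distal membrane arm were lower in 8 of 9 genes, with a median of -0.39 (6 of 9 and -0.03 with scaling to the median). Ndufb7 was at 3727.2 and 2528.3 (-0.60, or 1.52-fold lower), and Ndufb8, whose protein is often blotted as a marker of assembled complex I, at 7602.4 and 5014.2 (-0.58, just short of 1.5-fold). Ndufb5 was at 599.7 and 399.8 (-0.55). Ndufb7 lay just inside the 1.5-fold line, and Ndufb8, Ndufs5 and Ndufb5 just outside it. In the deposited values Ndufb7, at -0.56, was outside the line and Ndufb8, at -0.60, inside it, and Ndufb5 lay on the line. Ndufb10 (-0.45), Ndufb4 (-0.39), Ndufb11 (-0.27), Ndufb9 (-0.25) and Ndufb3, at 3771.0 and 3270.5 (-0.24), completed the lower genes. Ndufb2 was higher, with a dim probe at 21.5 and 34.5 (0.22, and 0.68 in deposited values). Ndufab1, the acyl carrier protein that sits in both arms and also serves lipoic acid synthesis, was dim as well, at 76.3 and 54.5 (-0.27, and -0.49 in deposited values). The 3 subunits that were higher on the quantile scale were Ndufb2, Ndufa3 and Ndufa2, of which only Ndufa2 lay above the 75th percentile of signal. Over the 30 subunits above it, 29 were lower and the median was -0.40.

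Several dim probes shared a feature of the annotation. Of the 46 member probes 4 had no transcript accession, those of Ndufa3, Ndufc1, Ndufab1 and the assembly factor Ndufaf5, and none of the 4 lay above the 75th percentile of signal. The 31 subunits whose probe had an accession had a median of -0.40, with 29 lower, and the 3 without had one of -0.16, with 2 lower. The order of these medians turned in the authors' processed values, at -0.36 with an accession and -0.49 without. It turned likewise under median scaling (-0.05 and -0.14) and where the blank mean (-0.41 and -0.51) or the local background column (-0.27 and -0.40) was subtracted. Of the 44 genes 2 had a pair of probes. The second probe of Ndufa13 gave deposited values of 95.9 and 71.8 (-0.26, and -0.42 in deposited values), and that of Ndufb5 43.4 and 30.7 (-0.20, and -0.50 in deposited values). Both second probes were dim and gave the same direction as the first.

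The 3 other Nduf genes are not complex I subunits or cannot be told from one. Ndufa4, now counted as a subunit of complex IV, was at 11651.0 and 9856.4, with a log2 ratio of 0.03 that turned to -0.24 in the deposited values and to -0.33 under cyclic loess. Its paralogue Ndufa4l2, known to be induced in hypoxia, was at 356.1 and 231.2 (-0.54). Ndufa11b, a paralogue of Ndufa11, was at 776.8 and 561.0 (-0.46), beside 3532.1 and 2742.9 for Ndufa11. Probes of the 2 Ndufa11 genes may share signal, so the value of Ndufa11b is uncertain.

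**Figure D2:**
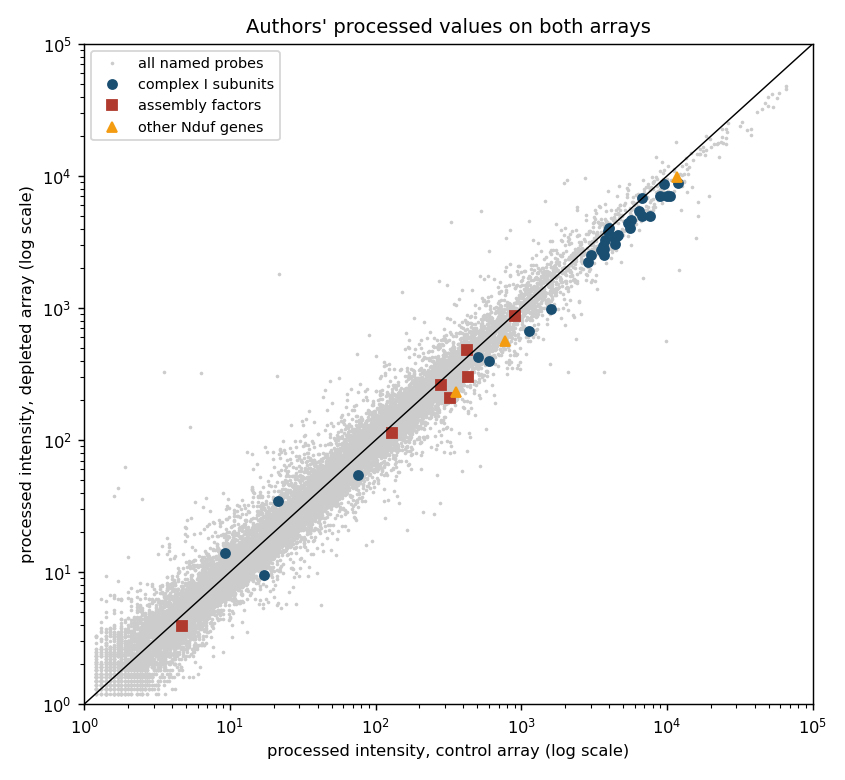
Authors' processed intensity of every named probe on the control array (horizontal) and the depleted array (vertical), both on log axes, with the line of equal values. Blue circles are the 34 complex I subunits, red squares the 7 assembly factors and orange triangles the other 3 Nduf genes; most blue circles lie below the line (30 of 34), and the 4 circles at the lower left are the dim probes of Ndufa3, Ndufc1, Ndufb2 and Ndufab1.

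Assembly factors had a median nearer 0 than the subunits, a difference that was not tested. Their deposited control values ran only from 4.7 to 899.0, and the offset draws ratios of dim probes toward 0. With the blank spots subtracted the medians were -0.22 for the factors and -0.41 for the subunits, and in the authors' processed values -0.21 and -0.37. No set of genes chosen at the signal of the factors was compared. Of 7 Ndufaf genes 6 were lower and 1 higher, 0 of them past 1.5-fold, with a median of -0.10 (3 of 7 lower and 0.04 with scaling to the median). Ndufaf6, which acts early in the building of the membrane arm, was at 323.9 and 209.6 (-0.53). In the deposited values its ratio was -0.63, or 1.55-fold lower, and it was the 1 factor past 1.5-fold there. Ndufaf1, part of the complex that assembles the membrane arm, was at 427.6 and 300.6 (-0.46). The other 5 lay near 0 on the quantile scale. Ndufaf7, a mitochondrial methyltransferase, was at 130.1 and 112.6 (-0.15), and Ndufaf8, the partner of Ndufaf5, at 899.0 and 867.7 (-0.10). Ndufaf3 and Ndufaf4 act together on the ubiquinone module, and Ndufaf3 was at 282.6 and 263.2 (-0.09) while Ndufaf4 was the one factor that was higher, at 425.6 and 481.9 (0.12). Ndufaf5, which hydroxylates Ndufs7, had a dim probe at 4.7 and 3.9 (-0.02, and -0.27 in deposited values). Ecsit, Acad9 and Tmem126b, which work with Ndufaf1 and were picked after their values were seen, had ratios of -0.21, 0.19 and -0.01.

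The 11 other complex I assembly factors compared gave 7 lower and 4 higher genes, a median of -0.14 and 1 gene past 1.5-fold. That gene was Tmem126a, which binds a membrane subunit during assembly, at 2429.6 and 1596.0 (-0.66). Timmdc1 had a ratio of -0.35, and Nubpl, which delivers iron-sulfur clusters to complex I, was higher, at 154.0 and 213.7 (0.35). Genes of iron-sulfur cluster assembly, which supply the clusters of the core subunits, were lower in 8 of 11, with a median of -0.11. With scaling to the median only 3 of 11 were lower in each of these lists, and the medians were 0.09 and 0.10. Glrx5, a glutaredoxin that hands clusters on, was at 1524.8 and 1033.2 (-0.59), Bola3 at 3029.7 and 2166.0 (-0.50) and Isca1 at 2833.6 and 2064.1 (-0.46).

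The direction of the subunit values depended on how the arrays were scaled, while most stayed below the median of genes of like signal. Before any scaling, with only the blank spots subtracted, the subunits had a median log2 ratio of 0.07, with 21 of 34 higher, but the 194 genes of like signal had one of 0.52 and the probes above background on both arrays one of 0.43. The spot intensities of Ndufv2, for example, were 9343 and 9414, and those of Ndufs1 1289 and 1084. Scaling to the median in place of quantile normalisation left the subunits at -0.06, with 21 lower, 13 higher and 0 past 1.5-fold. It put the genes of like signal at 0.38, and 34 of 34 subunits lay below the median of those genes. In that setting the median was 0.24 for genes above the 75th percentile and -0.02 for all genes. The count of 34 is thus not matched in signal for dimmer subunits, since the set spans only the subunits' quartiles. Of the genes of like signal 20.6% were then lower, and 2.06% and 26.8% passed 1.5-fold downward and upward, against 54.5%, 0.676% and 4.84% of all genes. In the authors' processed values the subunits were at -0.37, with 30 of 34 lower, and the genes of like signal at 0.08. Of all genes 50.7% were lower there, and 7.05% and 9.06% passed 1.5-fold downward and upward, against 38.1%, 5.67% and 11.3% of the genes of like signal. The subunit median was lower than that of genes of like signal by 0.39 on the log2 scale in the main setting, by 0.44 with median scaling, by 0.43 with cyclic loess and by 0.45 in the authors' processed values. The 9 subunits with the highest signal, among them Ndufv2 and Ndufa12, had a median of -0.25 against -0.01 for 86 other genes in that range. With the local background column subtracted, 21 of 34 subunits were lower and 23 lay below the median of genes of like signal. For the assembly factors, median scaling turned the median to 0.04, with 4 of 7 higher.

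**Figure D3:**
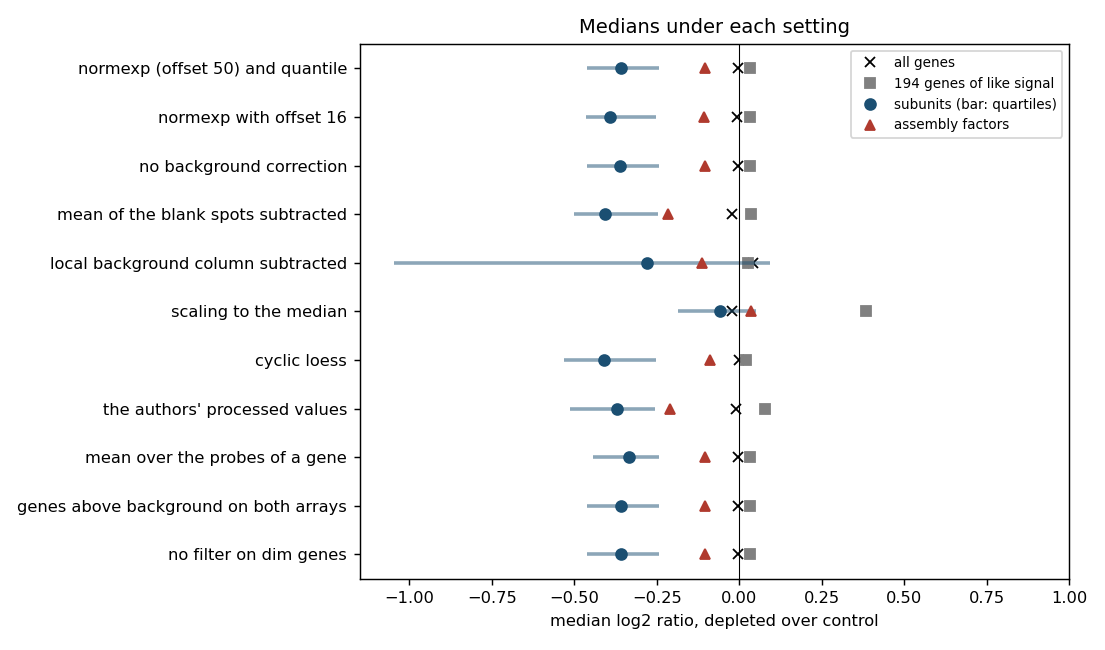
Median log2 ratio of depleted over control muscle (horizontal) under the main setting and 10 alternatives (vertical). Blue circles with bars are the 34 subunits with their quartiles, red triangles the 7 assembly factors, grey squares the 194 genes of like signal and crosses all genes; with scaling to the median the circle moves to -0.06 and the square to 0.38, and with the local background column subtracted the circle is at -0.28.

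Other respiratory and mitochondrial genes were set beside complex I. The 4 complex II genes were all lower, with a median of -0.52, and Sdhc, Sdhd and Sdha were at -0.65, -0.65 and -0.39. Complex III had a median of -0.35 with 8 of 9 lower, led by Cyc1 at -0.84 and Uqcrc2 at -0.72, with Uqcrc1 at -0.45. Complex V had one of -0.24 with 11 of 15 lower, and Atp5j, Atp5k and Atp5a1 were at -0.54, -0.53 and -0.46. Complex IV had one of -0.07 with 9 of 11 lower, with Cox7a1 at -0.73, Cox7a2 at -0.43 and Cox6a2 at 0.45. In the authors' processed values complexes IV and V were at -0.28 and -0.34. Tricarboxylic acid cycle enzymes, which make much of the NADH that complex I oxidises, had a median of -0.37 with 11 of 12 lower and 0 past 1.5-fold: Sucla2 was at -0.51, citrate synthase (Cs) at -0.49 and Dlst at -0.48. Outer membrane and import genes had a median of -0.12 with 7 of 9 lower, and the channels Vdac1, Vdac2 and Vdac3 were at -0.29, -0.26 and -0.24. On the quantile scale the median of complex I lay close to those of complex III and the tricarboxylic acid cycle. Under cyclic loess complexes IV and V lay as close. The medians there were -0.41 for complex I, -0.56 for complex II, -0.36 for complex III, -0.38 for complex IV, -0.41 for complex V and -0.46 for the cycle. No difference between lists was tested. With median scaling the medians were -0.19 for complex II, -0.10 for complex III, 0.03 for complex IV, -0.03 for complex V, -0.10 for the tricarboxylic acid cycle and 0.11 for the outer membrane list.

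Regulators of mitochondrial genes were mixed, with 8 of 14 lower, 4 of them at least 1.5-fold, and a median of -0.13. Ppargc1a, the coactivator PGC-1alpha, was at 427.0 and 197.3 (-0.96, or 1.94-fold lower) by its brightest probe. Where the probes of a gene were averaged, the lowest ratio in this list was -0.78, so Ppargc1a was less low there. Esrrg, an estrogen-related receptor that binds genes of oxidative metabolism, was at 1635.7 and 978.9 (-0.78), and Tfam, which packs and transcribes mitochondrial DNA, at 538.0 and 300.5 (-0.76). With median scaling these 3 were at -0.69, -0.41 and -0.48. Of the mitophagy genes 3 of 6 were at least 1.5-fold higher: Bnip3, a receptor on mitochondria, was at 2405.3 and 5542.8 (1.16), the adaptor Sqstm1 at 2782.8 and 5097.8 (0.83) and the kinase Ulk1 at 181.1 and 339.4 (0.72). The other 3 were lower, and with scaling to the median 1 of 6 was.

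**Figure D4:**
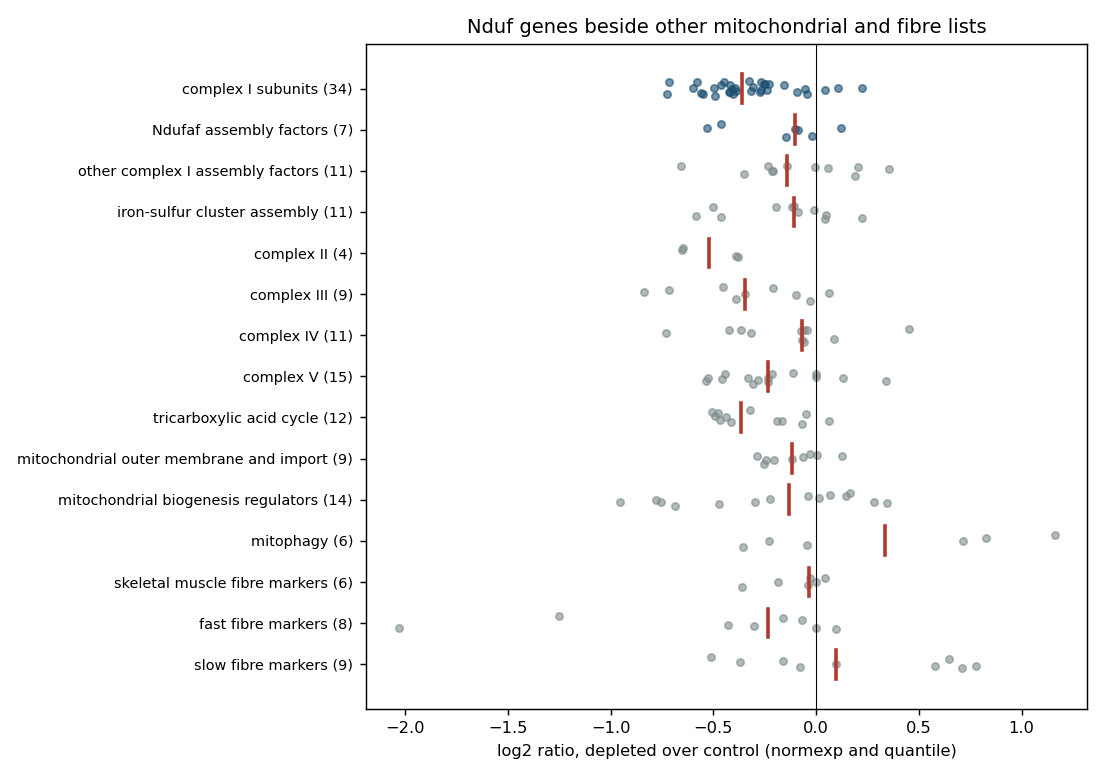
Log2 ratio of depleted over control muscle for each gene of the Nduf lists (blue) and of other mitochondrial and fibre lists (grey), with the number of genes in parentheses and the median as a red bar. Complex I subunits (-0.36), complex III (-0.35) and the tricarboxylic acid cycle (-0.37) have like medians on this quantile scale (-0.06, -0.10 and -0.10 with scaling to the median), and 3 mitophagy genes lie above 0.7.

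Markers of cell types were read beside these values. Fibre markers were abundant on both arrays, with a summed deposited value of 268569.6 in control and 194680.3 in depleted muscle over 6 genes, and a median ratio of -0.03; Mb, the myoglobin of oxidative fibres, was at -0.36, Ttn at -0.19 and Tnnt3 at 0.04. In the authors' processed values all 6 were lower with a median of -0.43 (Mb -0.67, Ttn -0.39, Tnnt3 -0.33), and under cyclic loess all 6 were lower with one of -0.56, 3 of them past 1.5-fold. Fast fibre markers were lower in 6 of 8 genes (summed 241329.8 and 164789.6), with Casq1 at -2.03, Pvalb at -1.25 and Myh1 at -0.43. Their median was -0.23 with 2 past 1.5-fold. All 8 were lower in the authors' processed values (median -0.58, 4 past 1.5-fold, Myh1 -0.71), under cyclic loess (-0.71, 5 past 1.5-fold) and with scaling to the median (-0.27, 2 past 1.5-fold). Slow fibre markers were higher in 5 of 9 (summed 26556.5 and 31119.1), with Myoz2 at 0.78, Tnnt1 at 0.71 and Tnnc1 at 0.65. The other 4 were lower, with Myh7 at -0.51, Casq2 at -0.37, Myl3 at -0.16 and Myl2 at -0.08. The median of the slow markers was 0.10, against 0.43 under median scaling and -0.43 after subtraction of the local background column. Macrophage markers were higher in 8 of 8 (summed 3173.5 and 6961.3), 5 of them past 1.5-fold. Lyz2 was at 1.22, C1qc at 0.91 and C1qb at 0.84, while Csf1r was nearly unchanged at 0.004. Adgre1, on a dim probe, was at 0.12. Mesenchymal progenitor markers summed to 23542.9 and 11376.8. Erythroid markers were lower in 6 of 6 (summed 33869.4 and 6050.2), with Hbb-bt, Hbb-b2 and Hbb-bs at -3.30, -2.51 and -2.47, on probes that can share signal. Endothelial markers were higher in 6 of 6 (summed 425.3 and 634.7), 1 of them past 1.5-fold. Cldn5 was at 0.83, Pecam1 at 0.40 and Kdr at 0.14. The probes of Cdh5 (4.7 and 6.6) and Emcn (12.6 and 14.5) were dim. With the local background column subtracted 5 of 6 endothelial markers were lower, and with scaling to the median 1 of 6 was. Adipocyte markers were higher in 3 of 6 (summed 5702.9 and 5969.1), with Cidec at -0.32, Adipoq at 0.28 and Plin1 at 0.24. Satellite cell markers were higher in 5 of 6 (summed 291.2 and 389.8), with Cdh15 at 0.58, Chodl at 0.15 and Vcam1 at 0.09. The 34 complex I subunits summed to 152868.2 and 119710.9. The part of these cell types in the complex I values was not tested.

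Promoters of the members were searched for motifs of factors known to act on respiratory chain genes, as the subunit ratios lay close together. The promoter table of RefSeq (build GRCm38.p6) gives 300 bases a window, from 250 before the start to 50 after it, and held 40 windows for 38 of the 44 genes; Ndufs1, Ndufa2, Ndufa11b, Ndufa4l2, Ndufaf6 and Ndufb9 had no entry. The motifs, read on both strands, were GCGC, any 2 bases and GCGC for NRF1, GCCATNTT for YY1, TNAAGGTCA for estrogen-related receptors and CCGGAAGT for ETS factors such as GABP. The NRF1 motif was in 12 of the 40 windows (30.0%), against 6.23% of all 32851 windows and 9.40% of those of genes on the array. The YY1 motif was in 14 (35%), against 6.05% and 6.55%. The receptor motif was in 1 window, that of Ndufb4, and the ETS motif in 1, that of Ndufs3, against 1.28% and 3.89% of all windows. The median GC content was 59.2% in the member windows and 57.7% in those of genes on the array. Members with an NRF1 match had a median log2 ratio of -0.32 (11 genes) and those without one of -0.31 (27 genes), and for YY1 the medians were -0.25 (14 genes) and -0.32 (24 genes). A match describes letters and does not show binding. The stretches upstream of 3 members are shown to give the arrangement of these matches, in capitals: Ndufs8, which has the lowest ratio among the genes with a window, Ndufb5, which has 2 YY1 matches, and Ndufb4, which has 3 NRF1 matches and, between the last 2 of them, the receptor match. Each ends at the base before the start.
Ndufs8, chr19:3912775-3912974, minus strand: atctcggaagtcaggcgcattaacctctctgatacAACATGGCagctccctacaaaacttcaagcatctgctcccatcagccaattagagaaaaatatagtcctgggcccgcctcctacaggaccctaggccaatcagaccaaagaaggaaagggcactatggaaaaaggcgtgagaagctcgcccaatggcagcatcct
Ndufb5, chr3:32736813-32737062, plus strand: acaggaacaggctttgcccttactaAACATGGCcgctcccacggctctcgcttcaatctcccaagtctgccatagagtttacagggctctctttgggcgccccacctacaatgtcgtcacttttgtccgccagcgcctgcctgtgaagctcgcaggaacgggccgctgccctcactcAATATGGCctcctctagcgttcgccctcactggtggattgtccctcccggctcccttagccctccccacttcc
Ndufb4, chr16:37654369-37654568, minus strand: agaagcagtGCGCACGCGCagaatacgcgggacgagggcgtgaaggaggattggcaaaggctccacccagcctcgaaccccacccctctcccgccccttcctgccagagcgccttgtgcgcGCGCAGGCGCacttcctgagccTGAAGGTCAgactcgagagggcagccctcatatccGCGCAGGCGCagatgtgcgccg
In Ndufs8 the YY1 match begins 165 bases before the start, in Ndufb5 the matches begin 225 and 73 bases before it, and all 3 read as AANATGGC, the reverse complement of the motif. In Ndufb4 the NRF1 matches begin 191, 79 and 22 bases before the start and the receptor match 57 bases before it. These genes had log2 ratios of -0.72, -0.55 and -0.39.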

How the data were processed

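Gastrocnemius RNA, 1 sample a group, was amplified and labelled with Cy5 for 1-colour arrays, as the labels' protocols state. Per the file headers, the deposited spot intensity is a linear median over pixels, read at 635 nm and combined from 3 scans of different gain. A second table holds intensities that the authors processed, of which each array's column proved a straight line of the spot value that is zero near the blank mean, with a slope of 1.27 (control) or 0.938 (depleted). How else it was made is not stated in these sources.

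Spots were corrected by normexp (limma 3.58.1, R 4.3.3), set on a log2 scale and quantile-normalised over 23473 probes. Spots of a probe were averaged and a gene took its brightest probe, named by the platform annotation. Genes above the blank mean plus 2 SD on at least 1 array were compared. Python 3.11.15, numpy 2.4.6, pandas 2.3.3 and matplotlib 3.10.9 were used, and the steps were tested on simulated data. Members, lists and thresholds were chosen with earlier results of these data known. Both values are given for core subunits, for members past 1.5-fold, for the 3 lowest and 2 highest of a role group and for members with several probes. Up to 3 genes of each other list, by size of ratio, are named. Values of other members and of other marker genes were added after they were seen. Alternatives were other background corrections, scalings, filters and folds, the mean of a gene's probes and the authors' values. Local background follows the signal of its spot (Spearman correlation across probes 0.942 and 0.972) and was subtracted as an alternative only.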

Additional observations from a re-analysis of the deposited data

How the results depend on the processing

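No paired analysis was possible because there was a single array of each genotype. The subunit median ranged from -0.41 to -0.28 under the alternatives other than scaling to the median of values with the offset, which gave -0.058 for the subunits and 0.035 for the assembly factors. Genes of high signal moved with it: those above the 75th percentile had a median of 0.24 with it and -0.01 without, and the subunit median minus theirs stayed between -0.41 and -0.30 under every alternative. Assembly factors were at -0.22 with the blank spots subtracted and at -0.21 in the authors' processed values. The 3 subunits at least 1.5-fold lower became 5 with the blank spots subtracted, 12 with the local background subtracted, 0 with scaling to the median and 6 with cyclic loess; by construction they were 18 at the smaller fold tried and 0 at 2-fold. The 0 at least 1.5-fold higher became 2 with the blank spots subtracted, 2 in the authors' processed values and 5 with the local background subtracted. The number of all genes past 1.5-fold moved too. Of 18498 genes, 1416 were lower and 1649 higher by that much with the blank spots subtracted. The local background column gave 3620 and 3961, and cyclic loess 298 and 370. No count over all genes is given for the smaller fold. The cause was not tested for the changes other than those by construction. Single Nduf genes kept their side of 1.5-fold in 438 values under the alternatives, though values short of it could change sign. They newly passed it in the same direction in 34 and no longer did in 5. In 6 others, all with the local background subtracted, they newly passed it in the opposite direction. Of the genes past 1.5-fold in the main setting, the 1 that changed sign was Ndufb7, at 0.22, with the local background subtracted. Centring on the print block and restriction to genes above that percentile were chosen after the data had been seen. The median ratios of the 24 print blocks ran from -0.01 to 0.02, and centring on them left the subunit median at -0.36. Among other named genes, reversals occurred with the local background subtracted: Cldn5 at -0.16, Cox7a1 at 1.42, Glrx5 at 0.57, Lyz2 at -7.78, Myoz2 at -8.36, Pvalb at 8.78, Sdhd at 0.52. Signal over background limits Ndufa3, Ndufc1, Ndufb2, Ndufab1 and Ndufaf5.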
